A study of Mus musculus with 9 samples.

Results

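Interferon-stimulated genes were followed as a list of 49 genes in pre-cDCs, the progenitors committed to conventional dendritic cells. The list was defined by gene symbol. All 49 members were found among the 51912 genes of the count table. Total RNA was sequenced from 9 samples of sorted pre-cDCs, each pooled from 2 mice that had been lethally irradiated (BL/6 CD45.1/2 hosts) and given BM of both genotypes in equal parts. WT donors were BL/6 CD45.1 mice, whereas the CD45.2 donors were Clec9a Cre/Cre and therefore lacked DNGR-1, so that cells of both genotypes matured in the same host. Clec9a encodes DNGR-1, a C-type lectin receptor of the cDC lineage, and the KO allele carries Cre at that locus. The groups were WT BM (n = 3), DNGR-1 KO BM (n = 3), WT spleen (n = 1) and DNGR-1 KO spleen (n = 2), with no treatment and no age given in the labels. The WT and KO cells also differ by the CD45 congenic interval, which is the same in every comparison of genotypes and cannot be told apart from the KO allele. The labels do not say which mice each sample came from. By the total of mice in the study's figure legend, not every sample can have had mice of its own. Samples of different genotype or tissue therefore shared mice, whereas those of a BM group can have come from separate mice. Which samples shared mice is not stated. As the main fits treat all samples as independent, p-values measure the spread between these samples.

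Type I and type II interferons act through cell surface receptors that start JAK kinases and STAT transcription factors. STAT2 and IRF9 act in a complex that binds an interferon-stimulated response element, and IRF1 acts at related elements, so that a shared set of antiviral genes is transcribed. DCs are known for constitutive expression of parts of this set and for IRF family factors that also serve DC development.

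Promoter sequences are shown because the element that defines the family can be read in them. RefSeq promoters (GRCm38.p6, 250 bases before to 50 bases after each start) were matched by symbol for 38 of the 49 members. The motif GAAANNGAAA, or TTTCNNTTTC on the other strand, was found in 21 of these 38 members (55.3%), whereas 1079 of 27025 genes with a promoter (3.99%) held it. Overlapping copies were each counted as a match, and a match is a description of letters and not a bound site. The motif was found in 10 of the 16 members with a promoter that were higher in spleen than in BM, in 1 of the 3 that were lower and in 10 of the 19 that did not pass that test. Among the members with no match in this window were Irf1, Irf7, Irf9, Ifnar1, Ifnar2, Samhd1 and Xaf1. Of the 25 members that passed the threshold in a test, 3 were chosen for printing after their values were seen: Isg15 for its difference between genotypes in spleen, and Oas1a and Oas1g as paralogs that moved in opposite directions between tissues. The 120 bases before the RefSeq start are given 5′ to 3′ on the gene's strand, with the matched letters in capitals, for Isg15 (chr4:156200819-156200938, minus strand), Oas1a (chr5:120907526-120907645, minus strand) and Oas1g (chr5:120887614-120887733, minus strand).
Isg15: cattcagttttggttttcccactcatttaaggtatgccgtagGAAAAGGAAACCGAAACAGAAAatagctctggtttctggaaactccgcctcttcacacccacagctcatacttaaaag
Oas1a: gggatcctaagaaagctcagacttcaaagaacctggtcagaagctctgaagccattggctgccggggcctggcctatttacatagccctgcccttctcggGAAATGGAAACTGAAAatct
Oas1g: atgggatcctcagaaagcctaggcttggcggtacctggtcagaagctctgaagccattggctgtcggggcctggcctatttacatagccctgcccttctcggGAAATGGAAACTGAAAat
Isg15 carried overlapping copies from 78 bases before the start. The RefSeq start was that of GENCODE for Isg15 and Oas1g and lay 4 bases before it for Oas1a. The Oas1a and Oas1g stretches were identical at 108 of 118 positions (91.5%) after a shift of 2 bases, and the matched letters were the same in both.

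Library totals ran from 17103806 to 23722298 counts, and levels are given as CPM, counts scaled to a common library size, after TMM normalization. A total of 3 counts, used as the floor of detection, came to between 0.126 and 0.175 CPM before normalization. Clec9a, the deleted gene, had 905, 1574 and 1766 counts in WT BM and 1 count in each DNGR-1 KO BM sample, with 2459 counts in WT spleen and 0 in both DNGR-1 KO spleen samples, which matches the labels. BM samples had 14862 to 18122 genes with a count and spleen samples 11698 to 13169. Of 13 pre-cDC and DC markers, 12 were above 3 counts in every BM sample and 12 in every spleen sample. In spleen, 2212 of 10956 genes that reached 100 counts in a sample had at most 3 counts in another (20.2%), against 99 of 10432 in BM (0.949%). The same gap was found in spleen for 5 of 46 members (Ifit1, Ifit2, Ifit3b, Ifi44 and Iigp1) and in BM for 1 of 39 (Oasl2).

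Per kb of exon, the highest members in BM were Ifitm2 at 729 CPM per kb and Ifitm3 at 493, which encode membrane proteins that block virus entry. They were followed by Ifnar2 at 73.2, Ifi35 at 65.6, Trim30a at 37.0 and Irf9 at 30.9 CPM per kb. In spleen the order was led by Ifitm3 at 1023 CPM per kb and Ifitm2 at 713, followed by Ifi35 at 83.4 and Trim30a at 56.1. Reads of Ifitm2 could be shared with Gm45717, which covers 40.9% of its exon bases, although Gm45717 itself had at most 4 counts. At the low end in BM were Gbp4, Gbp5, Oas2, Ifit3, Ifit3b, Ifi44, Iigp1 and Ifit1, all at 0.386 CPM per kb or less. The median member stood between 3.66 and 4.46 log2 CPM in the 6 BM samples and between 5.35 and 5.84 in the 3 spleen samples.

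**Figure D1:**
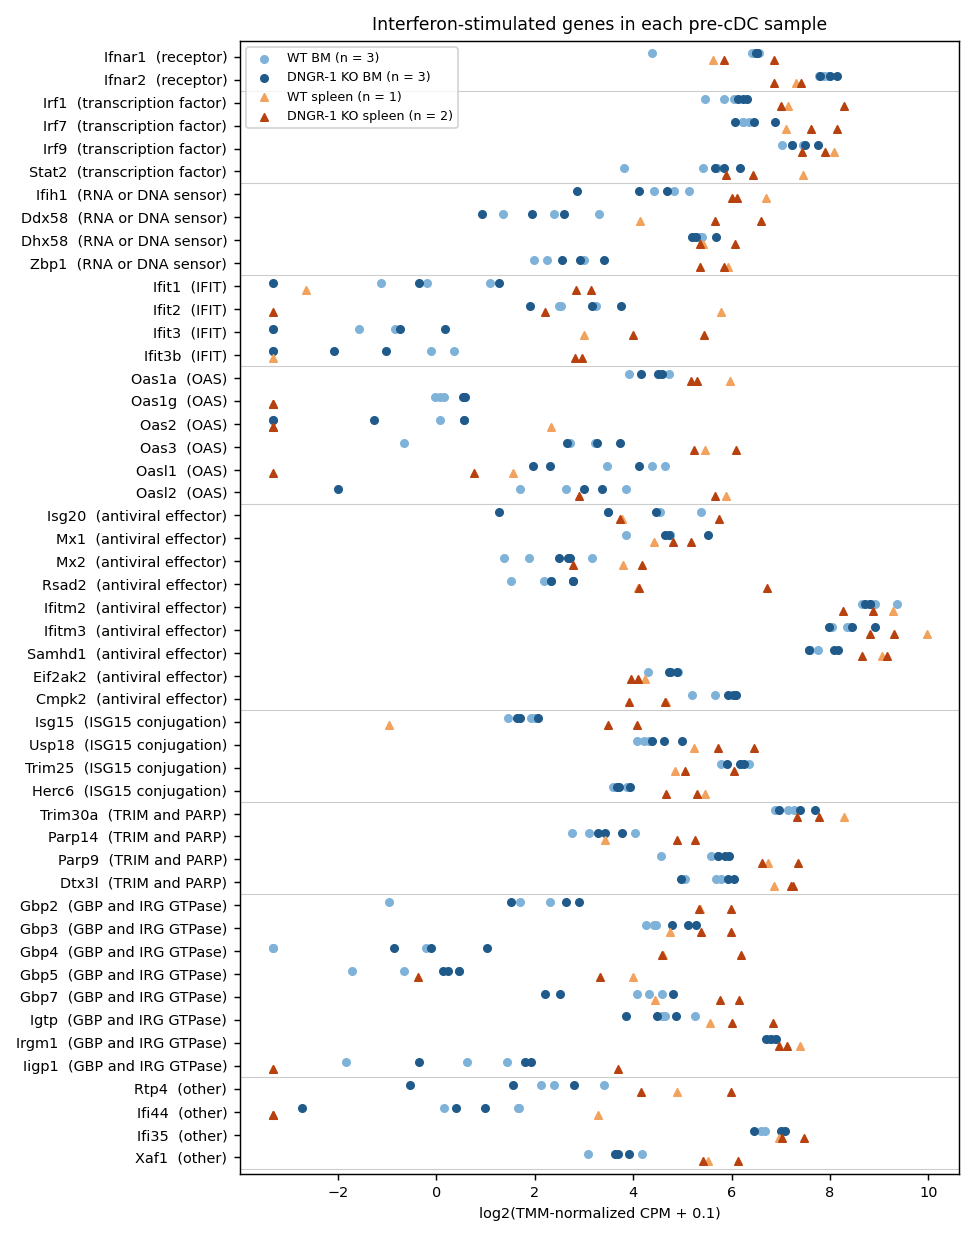
Level of each of the 49 members in each of the 9 samples, as log2(TMM-normalized CPM + 0.1) on the horizontal axis, with members in rows by role and a point per sample. Triangles (spleen) lie to the right of every circle (BM) for 20 members, and points at the left edge are values of 0.

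In BM, DNGR-1 KO and WT pre-cDCs were compared to ask whether loss of the receptor changes transcription in the progenitor. No member passed the threshold between genotypes in BM. Of 13016 genes tested there, 0.0307% had an edgeR adjusted p under 0.05 (4 genes), and of the 47 members that passed the filter on low counts (all but Ifit3 and Ifit3b) none did. An unadjusted p under 0.05 was reached by 1 of the 47 members, beside 3.83% of all genes tested. The median log2 fold change was 0.17 over the members, with 31 of 47 above 0, and -0.00 over all genes. DESeq2, limma-voom and the 13 other alternatives for this comparison also called 0 members, with 0 to 5 members at an unadjusted p under 0.05.

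Gbp3, a guanylate-binding GTPase that acts on pathogen vacuoles, had the lowest p of the members in BM. It stood at 21.5, 19.1 and 21.9 CPM in WT BM and at 38.8, 27.7 and 34.5 CPM in DNGR-1 KO BM. All 3 KO samples were above all 3 WT samples, and the log2 difference was 0.68 (SE 0.25, edgeR adjusted p = 0.861). It was the member with an unadjusted p under 0.05, at 0.0197. Usp18, the protease that removes ISG15 from proteins and damps the receptor, had 18.6, 19.9 and 16.7 CPM in WT and 20.8, 31.9 and 24.7 CPM in KO samples. The groups did not overlap, and the log2 difference of 0.48 (SE 0.26) had an edgeR adjusted p of 0.861. Oasl1, an OAS-like protein that restrains Irf7 translation, was at 25, 20.8 and 11 CPM in WT and 17.2, 4.86 and 3.81 CPM in KO samples. Its groups overlapped, with a log2 difference of -1.14 (SE 0.56, edgeR adjusted p = 0.861). Every KO sample was above every WT sample for 4 of 47 members (Gbp3, Usp18, Irf1 and Oas1g), where 4.96% of all genes tested showed that order, and no member showed the reverse order, which 4.59% of genes did.

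No receptor subunit and no factor below it passed the threshold in BM. Ifnar1, a subunit of the type I interferon receptor, had 84.9 and 94.7 CPM in WT BM samples 2 and 3 and 90.1, 91.6 and 91.3 CPM in KO BM, but 20.7 CPM in WT BM sample 1. Stat2, the STAT specific to type I and III interferon signalling, likewise had 14.0 CPM in WT BM sample 1, against 42.4 and 52.3 CPM in the other WT samples and 50.7, 71.9 and 57.2 CPM in KO samples. WT BM sample 1 was the lowest of the 6 BM samples for 12 of 47 members, beside 27.9% of all genes tested. Ifnar2, the other receptor subunit, was at 234, 219.5 and 249 CPM in WT and 223, 282 and 255 CPM in KO BM. Irf9, the DNA-binding partner of STAT2, was at 131, 149 and 174 CPM in WT and at 149.7, 216 and 179 CPM in KO BM. The log2 differences of these genes ran from 0.11 for Ifnar2 to 0.72 for Stat2, with none past the threshold. Irf1, which drives GBP genes among others, stood at 57.3, 43.9 and 66.4 CPM in WT and at 70.2, 79.5 and 75.2 CPM in KO BM (log2 difference 0.42, SE 0.24, edgeR adjusted p = 0.861). Irf7, the factor that amplifies type I interferon transcription, had 74.8, 75.6 and 82.0 CPM in WT and 67.0, 119 and 87.1 CPM in KO BM, and its groups overlapped. By role, the median log2 difference in BM was 0.70 over the 8 GBP and IRG GTPases, 0.33 over the 4 transcription factors, 0.29 over the 9 antiviral effectors, -0.21 over the 6 OAS genes and -0.27 over the 4 nucleic acid sensors, with no member called in any role.

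**Figure D2:**
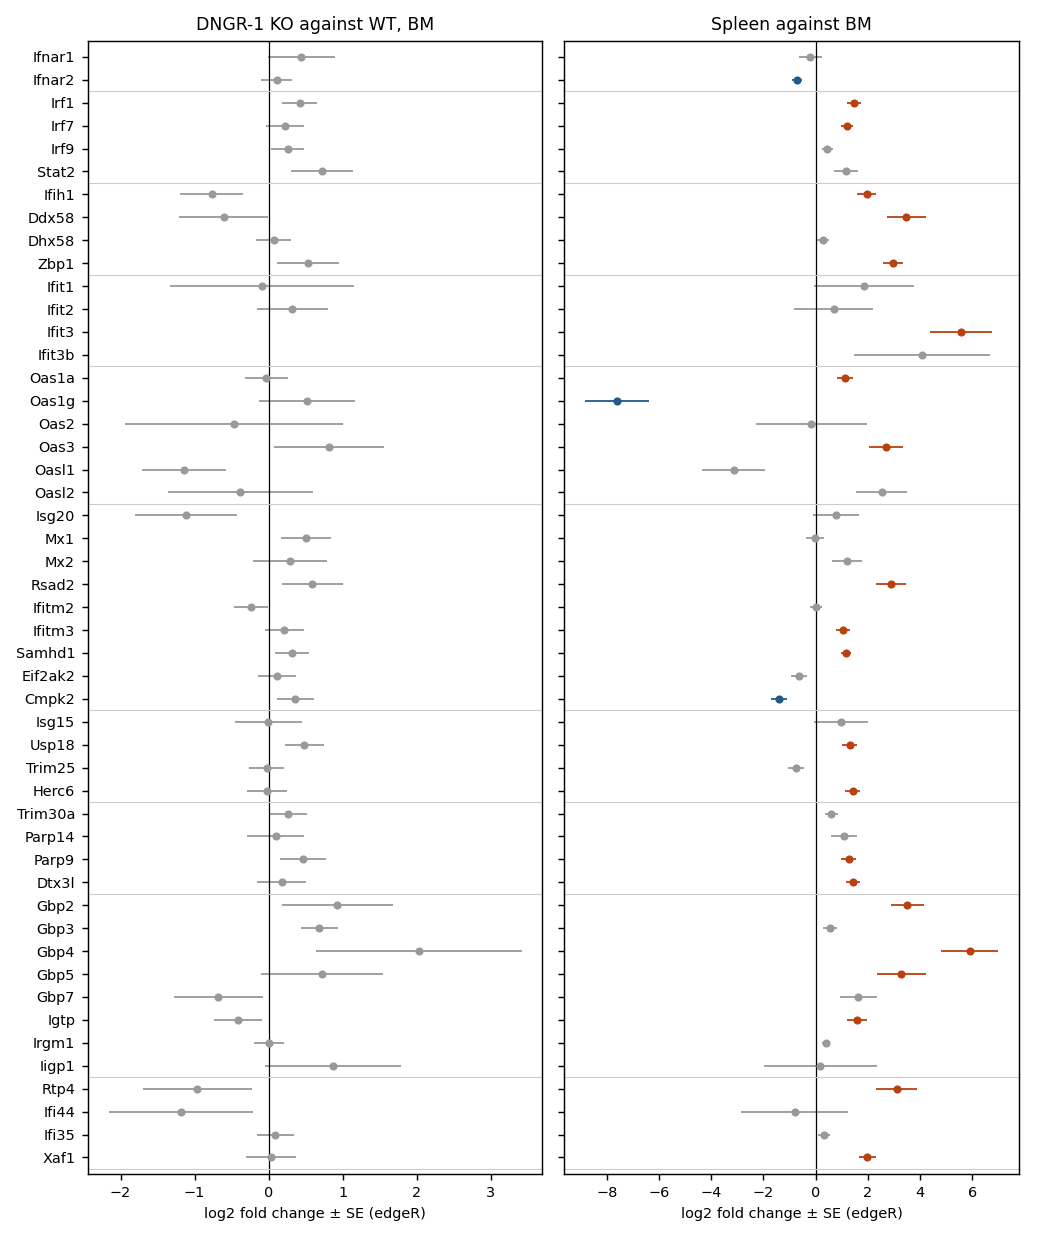
edgeR log2 fold changes (points) with SE (bars) of the members, by role, for DNGR-1 KO against WT in BM (left, 6 samples, 47 members) and spleen against BM (right, 9 samples, 49 members); the 2 axes differ in range. No member is past adjusted p = 0.05 on the left, whereas 21 are higher (red) and 3 lower (blue) in spleen on the right.

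Spleen and BM pre-cDCs were compared over the 9 samples, with genotype as a term of the fit, to ask how the list differs where the cells reside. In that fit 21 of the 49 members were higher in spleen, whereas 7.24% of the 14277 genes tested were called higher. Only Oas1g, Cmpk2 and Ifnar2 were lower in that fit, 3 of 49, beside 11.7% of genes. The median log2 fold change was 1.16 over the members and -0.19 over all genes, and 39 of 49 members were above 0. All 3 spleen samples exceeded all 6 BM samples for 20 members, an order held by 8.53% of genes, and all 3 were below all 6 for 5 members (Oas1g, Oasl1, Eif2ak2, Cmpk2 and Ifnar2), an order held by 17.1% of genes. Within DNGR-1 KO samples alone (3 BM, 2 spleen), 11 of 48 members were called higher, beside 3.71% of genes, and 2 lower, beside 6.23% of genes. With the replicate number of the labels as a block, 6 members remained called higher (Irf1, Ifih1, Zbp1, Samhd1, Xaf1 and Gbp4), beside 2.7% of genes, and none of the 3 lower members remained, beside 4.79% of genes. The sources used here do not tie these numbers to the mice. The samples of spleen also held transcripts of other cells, as given below, and in bulk RNA fewer cells of a type and less RNA per cell cannot be told apart.

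Zbp1, a sensor of Z-form nucleic acids that can start necroptosis, had the lowest adjusted p (chr2:173206612-173218923, minus strand, GRCm38). Its level was 7.94, 3.84 and 4.66 CPM in WT BM, 5.79, 7.51 and 10.6 CPM in KO BM, 60.6 CPM in WT spleen and 40.7 and 57.2 CPM in KO spleen. The tissues were far apart, at a mean of 6.72 ± 2.46 CPM (SD, n = 6) in BM and 52.8 ± 10.6 CPM (SD, n = 3) in spleen, a log2 fold change of 2.97 (SE 0.38, edgeR adjusted p = 0.00108). Xaf1, a proapoptotic zinc-finger protein (chr11:72301629-72313733, plus strand), was at 18.1, 12.4 and 8.34 CPM in WT BM, 12.3, 12.8 and 14.9 CPM in KO BM, 45.6 CPM in WT spleen and 69.6 and 42.7 CPM in KO spleen. The log2 fold change was 1.99 (SE 0.33, edgeR adjusted p = 0.00384), and spleen and BM did not overlap. Samhd1, a dNTP hydrolase that limits retroviral replication in myeloid cells (chr2:157097533-157135265, minus strand), was high in both tissues. Its values were 189, 215 and 192 CPM in WT BM, 189, 285 and 272 CPM in KO BM, 533 CPM in WT spleen and 571 and 404 CPM in KO spleen. Every spleen value was above every BM value, with a log2 fold change of 1.16 (SE 0.20, edgeR adjusted p = 0.00420).

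Among the interferon-inducible GTPases, which coat pathogen vacuoles, Gbp2, Gbp4, Gbp5 and Igtp were called higher in spleen and none of the 8 lower. Gbp2 (chr3:142620602-142638008, plus strand) had 3.16, 0.415 and 4.86 CPM in WT BM, 7.33, 6.08 and 2.76 CPM in KO BM, 40.7 CPM in WT spleen and 40.6 and 63.6 CPM in KO spleen. Its log2 fold change was 3.51 (SE 0.63, edgeR adjusted p = 0.00566), with no overlap between tissues. Gbp4 (chr5:105115767-105139586, minus strand) was close to the floor in BM, with 0, 0 and 15 counts in WT and 10, 17 and 39 counts in KO samples, and reached 409 counts in WT spleen and 433 and 1740 in KO spleen. In CPM these were at most 1.95 in BM and 24.2, 24.1 and 73.4 in spleen, a log2 fold change of 5.91 (SE 1.09, edgeR adjusted p = 0.00624) that was 6.90 without WT BM 3. Gbp4 shares 61 exon bases with Gbp8 and 60 with Gbp9, and reads common to these paralogs could have been divided between them. Igtp, which overlaps Irgm2 over 162 exon bases, had a mean of 25.5 ± 7.95 CPM in BM (SD, n = 6) and 75.1 ± 34.8 CPM in spleen (SD, n = 3). Irgm1, an IRG GTPase that regulates autophagy, was at 111 ± 6.25 CPM (SD, n = 6) in BM and 144 ± 22 CPM (SD, n = 3) in spleen and missed the threshold (edgeR adjusted p = 0.110). Gbp3 and Gbp7 had log2 differences of 0.54 and 1.63 and missed it too.

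Of the transcription factors, Irf1 and Irf7 were higher in spleen. Irf1 (chr11:53770014-53778374, plus strand), at 43.9 to 79.5 CPM over the 6 BM samples listed above, had 142 CPM in WT spleen and 128 and 311 CPM in KO spleen, for a log2 fold change of 1.48 (SE 0.27, edgeR adjusted p = 0.00580). Irf7 had 137 CPM in WT spleen and 283 and 196 CPM in KO spleen, all above the BM maximum of 119 CPM, with a log2 fold change of 1.20 (SE 0.23, edgeR adjusted p = 0.00782). Phrf1 lies opposite Irf7 and shares 45 exon bases with it. Irf9 overlapped between tissues at 269 CPM in WT spleen and 238 and 171 CPM in KO spleen (log2 fold change 0.45, SE 0.21, edgeR adjusted p = 0.172), and 123 of its exon bases are shared with Rnf31. Stat2 was at 174 CPM in WT spleen and 85.8 and 59.1 CPM in KO spleen (log2 fold change 1.16, SE 0.48, edgeR adjusted p = 0.118). Of these values, only that of KO spleen 2 lay within the BM range, whose maximum was 71.9 CPM.

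Neither receptor gene was higher in spleen. Ifnar2 (chr16:91372783-91405589, plus strand) was at 158 CPM in WT spleen and 116 and 169 CPM in KO spleen, below every BM value, and its mean went from 244 ± 23.5 CPM (SD, n = 6) in BM to 147 ± 28.3 CPM (SD, n = 3) in spleen. The log2 fold change was -0.72 (SE 0.18, edgeR adjusted p = 0.0249). Ifnar1, at 48.9 CPM in WT spleen and 57.3 and 116 CPM in KO spleen, had a log2 difference of -0.20 (SE 0.44). Cmpk2, a mitochondrial nucleotide kinase that sits beside Rsad2 in the genome (chr12:26469204-26479837, plus strand), was the antiviral effector that was lower in spleen. Its values were 36.5, 50.9 and 64.2 CPM in WT BM, 66.2, 68.5 and 61.1 CPM in KO BM, 25.3 CPM in WT spleen and 25.1 and 15 CPM in KO spleen. No values overlapped, and the log2 fold change was -1.41 (SE 0.30, edgeR adjusted p = 0.0124). Its neighbour Rsad2, which encodes viperin, went the other way, from 5.11 ± 1.52 CPM (SD, n = 6) in BM to 17 CPM in WT spleen and 105 and 17.3 CPM in KO spleen (log2 fold change 2.89, SE 0.58, edgeR adjusted p = 0.00879), and the log2 fold change was 1.81 without KO spleen 1.

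OAS enzymes make the 2-5A messenger that activates RNase L, and the OAS and OAS-like genes were split. Oas1g (chr5:120876142-120887613, minus strand) had 16, 17 and 20 counts in WT BM, 30, 28 and 28 in KO BM and 0 in each spleen sample. Taking 3 counts per spleen library as the floor, it was at least 7.42-fold lower in spleen (edgeR adjusted p = 0.00605). Its paralog Oas1a (chr5:120896256-120907521, minus strand), with nearly the same promoter stretch, had 26.4, 23.4 and 15.1 CPM in WT BM, 23.8, 22.5 and 17.7 CPM in KO BM, 62.9 CPM in WT spleen and 39.3 and 35.9 CPM in KO spleen. Oas1a was above its BM range in all 3 spleen samples (log2 fold change 1.12, SE 0.29, edgeR adjusted p = 0.0278). How reads common to these near-identical paralogs were assigned in each library is not known, so both values are uncertain. Oas3 was higher in spleen too (log2 fold change 2.69), whereas Oas2, Oasl1 and Oasl2 missed the threshold at -0.16, -3.13 and 2.53.

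Of the remaining roles, the sensors Ifih1 (MDA5) and Ddx58 (RIG-I), which detect viral RNA, were higher in spleen with log2 fold changes of 1.96 and 3.48, whereas Dhx58 (LGP2) was at 0.26 and missed the threshold. Ddx58 was at 1.82 to 9.85 CPM over the 6 BM samples, 17.5 CPM in WT spleen and 50.3 and 96.4 CPM in KO spleen, and its log2 fold change was 4.27 without WT spleen and 2.86 without KO spleen 2. Ifih1 went from 22.5 ± 9.69 CPM in BM (SD, n = 6) to 78.8 ± 21.6 CPM in spleen (SD, n = 3). Among the IFIT genes, whose proteins bind viral RNA caps and ends, Ifit3 was called, with at most 1.03 CPM in BM and 7.89 CPM in WT spleen and 15.9 and 43.3 CPM in KO spleen (log2 fold change 5.57, and 6.16 without KO BM 2). Ifit1, Ifit2 and Ifit3b were not called, with values in spleen that ran from 0 or 1 count to 930 counts. Ifit3 and Ifit3b are paralogs, and reads common to them could have been divided between them. In ISG15 conjugation, Usp18 and the ligase Herc6 were higher in spleen by 1.3 and 1.41 on the log2 scale, and Isg15 and Trim25 missed the threshold at 0.97 and -0.76. The ADP-ribosyltransferase Parp9 and its partner ligase Dtx3l were higher by 1.26 and 1.44, and these genes share 458 exon bases on opposite strands. Trim30a and Parp14 had log2 differences of 0.61 and 1.08 that missed the threshold. Ifitm3 was higher in spleen by 1.06, whereas Ifitm2 was at 0.01, Mx1 at -0.04, Mx2 at 1.20, Isg20 at 0.79 and Eif2ak2 (PKR) at -0.63, none called. Rtp4, a chaperone of receptors and a negative regulator of interferon responses, was higher by 3.10, with 29.6 CPM in WT spleen and 17.9 and 63.7 CPM in KO spleen, and by 2.29 without KO spleen 2. Iigp1, Ifi44 and Ifi35 were at 0.18, -0.81 and 0.32 and were not called.

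Leaving out each library in turn left 18 to 25 members called between tissues, beside 13.0% to 22.7% of genes. Zbp1, Xaf1, Samhd1, Gbp2, Irf1, Gbp4, Oas1g and Cmpk2 were called in all 9 of these fits, and so were Ifit3, Irf7, Rsad2, Usp18, Ifih1, Ddx58 and Dtx3l. Among them, Irf1, Usp18, Ifit3, Ifih1 and Samhd1 were not called within DNGR-1 KO samples alone (edgeR adjusted p from 0.0535 to 0.0751). Only Zbp1, Xaf1 and Gbp4 were called both there and with the replicate block. Gbp5, at 15.8 CPM in WT spleen and 9.999 and 0.675 CPM in KO spleen, had a log2 fold change of 3.28 and was called in 1 of the 9, without KO spleen sample 2 (3.93, adjusted p = 0.00498), with an adjusted p of up to 0.216 without any other library (2.26 without WT spleen). Ifitm3 was lost without any 1 of WT BM 1, WT BM 2, WT BM 3, KO BM 1 or WT spleen (adjusted p up to 0.206). Ifnar2 was lost without WT BM 3, KO BM 2, KO BM 3, WT spleen or KO spleen 1 (adjusted p up to 0.0637). Oas1a was lost without WT BM 2, KO BM 3 or WT spleen (up to 0.144). The WT spleen sample also decided Oas3, Parp9 and Herc6, whose adjusted p without it or, for Oas3, without KO BM 1, reached 0.0951, 0.0612 and 0.0522. Rtp4 was lost without KO BM 3 or KO spleen 2 (up to 0.0607) and Igtp without KO BM 2 (0.0555).

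Transcripts of other cell types differed between the tissues in the same samples. The sort gate had excluded CD3, NK1.1, Ly6G and Ter119. All 7 T cell markers were called higher in spleen, with a summed level of 0.239 to 3.57 CPM in BM and 762 to 3165 CPM in spleen. Of 8 NK cell markers 6 were higher, with sums of 45.9 to 130.2 CPM in BM and 590.5 to 1152 CPM in spleen. Neutrophil markers went the other way, 7 of 8 lower, from 859 to 2795 CPM in BM to at most 1.06 CPM in spleen. cDC1 markers, Clec9a included, summed to 9.27 to 138 CPM in BM and 105 to 622 CPM in spleen. cDC2 markers summed to 387 to 761 CPM in BM and 742 to 1568 CPM in spleen, with 2 of 6 higher and 1 lower. Plasmacytoid DC markers summed to 622 to 885 CPM in BM and 355 to 614 CPM in spleen, with 2 of 10 lower. Of 9 monocyte and macrophage markers 4 were higher and none lower, although the sums overlapped at 1978 to 3774 CPM in BM and 2467 to 3627 CPM in spleen. Of 6 B cell markers 1 was higher, with sums of 37.6 to 58.5 CPM in BM and 34.6 to 46.6 CPM in spleen. Erythroid markers summed to 246 to 5109 CPM in BM and 8693 to 50368 CPM in spleen. The immune cells among these can express interferon-stimulated genes, and the part of other cells in the tissue difference of the members was not tested.

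**Figure D3:**
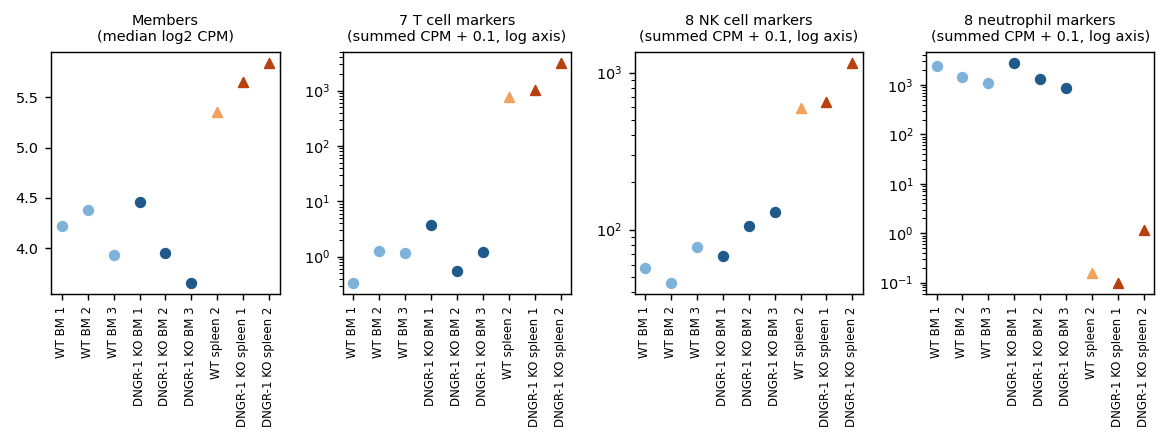
Median log2 CPM of the 49 members and summed CPM (+ 0.1, log axes) of T cell, NK cell and neutrophil markers in each of the 9 samples. The 3 spleen samples (triangles) are the highest for the members, the T cell markers and the NK cell markers, and the lowest for the neutrophil markers.

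Other genes of the interferon system were taken from a list of 131 genes, of which 130 were matched and 104 tested between tissues. Of these, 41 were higher and 3 lower in spleen, beside 7.24% and 11.7% of all genes tested. The median log2 fold change was 0.94 over the list and -0.19 over all genes. Among 21 interferon ligands only Ifng, the type II interferon made mainly by T and NK cells, passed the filter. Ifng had 0 counts in 5 BM samples and 1 count in the other, against 138 counts in WT spleen and 273 and 427 in KO spleen (edgeR adjusted p = 0.000232). No type I interferon gene passed it. Of 15 receptor and JAK-STAT genes tested, 7 were higher and none lower, among them Ifngr1, Jak1 and Socs1. The lowest adjusted p values among the higher genes were those of Epsti1 (log2 fold change 2.37, edgeR adjusted p = 0.000132), Ifng and Ifit1bl1 (9.16, adjusted p = 0.000270). Ifit1bl1 had 0 to 7 counts in BM and 634 to 2362 in spleen. Ifng and Ifit1bl1 passed the filter only through their spleen counts, so their adjusted p values add no support beyond the counts. The 3 lower genes were Lgals9, Trim21 and Ly6e, at -1.75, -4.86 and -0.69. In BM, none of the 98 genes tested was called between genotypes, beside 0.0307% of all genes. An unadjusted p under 0.05 was reached by 6 of the 98, beside 3.83% of all genes.

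In spleen, DNGR-1 KO and WT pre-cDCs were compared by size alone and no test within spleen was run, since WT spleen was a single sample. Sums of cell type markers also differed between these libraries, given as WT against KO 1 and KO 2. T cell sums were 762 against 1012 and 3165 CPM, and erythroid sums 8693 against 50368 and 16110 CPM. NK cell sums were 590.5 against 645.5 and 1152 CPM, and plasmacytoid DC sums 614 against 355 and 373 CPM. Monocyte and macrophage sums (3570 against 2467 and 3627 CPM) and B cell sums (37.1 against 46.6 and 34.6 CPM) lay on both sides. cDC2 sums were 1568 against 742 and 882 CPM, whereas cDC1 sums, at 385 against 622 and 105 CPM, lay on both sides. Pre-cDC and DC sums were 3672 against 5213 and 3870 CPM. The cDC1 set and the pre-cDC and DC set include Clec9a, the deleted gene, with 2459 counts in WT and 0 in both KO samples. Their sums are therefore biased toward WT. The part of other cells in the genotype differences of the members was not tested. Both KO samples were at least 2-fold above the WT sample for 7 of 48 members (Ifit1, Ifit3, Ifit3b, Isg15, Ddx58, Parp14 and Gbp7), where 16.5% of 13218 genes were. Both were at least 2-fold below it for 4 members (Ifit2, Oas2, Stat2 and Ifi44), where 9.09% of genes were. Neither share of the members, 14.6% and 8.3%, was above the share of all genes. The median member difference was -0.01 for KO spleen 1 and 0.06 for KO spleen 2 on the log2 scale, and 0.25 for their mean, beside 0.15 for the mean over all genes. The KO samples themselves were at least 2-fold apart for 13 of 48 members and for 45.3% of all genes.

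Isg15, the ubiquitin-like protein that is conjugated to targets and secreted (chr4:156199424-156200818, minus strand), had 3.94, 3.68 and 2.66 CPM in WT BM and 3.03, 3.14 and 4.11 CPM in KO BM. In spleen it was at 0.415 CPM in WT and at 16.8 and 11.2 CPM in the KO samples. The BM groups overlapped, whereas the KO spleen samples were the highest and the WT spleen sample the lowest of the 9. The WT spleen value rests on 7 counts, against 303 and 265 in KO spleen, so that the KO samples were 40.6-fold (95% exact interval 19.4 to 102) and 26.95-fold (12.9 to 67.7) above it, intervals that cover counting error only. The test of whether the genotype effect differed between tissues called 7.01% of 15813 genes. Of the 49 members it called Isg15 alone, with a log2 difference of 5.06 (SE 1.09, edgeR adjusted p = 0.0243). Among the 1108 genes called, 892 had a positive difference, and the median over all genes was 0.35. That fit takes the spread of the lone WT spleen sample from the other groups. When a BM library was left out, Isg15 was lost without WT BM 1, 2 or 3 or KO BM 1 or 2 (edgeR adjusted p up to 0.0648). It stayed called without KO BM 3.

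The IFIT genes were scattered between spleen samples. Ifit1 had 1 count in WT spleen, under the floor of 3 counts, and 127 and 208 counts in KO spleen, ratios of 119 (95% exact interval 20.98 to 4737) and 148 (26.3 to 5877) whose size is known only within these intervals. Ifit3b had 0 counts in WT spleen and 125 and 183 in KO spleen. With 3 counts as the floor of the WT library, the lower KO sample was at least 39.0-fold above WT. Its paralog Ifit3 had 133 counts in WT spleen and 286 and 1025 in KO spleen. How reads common to these paralogs were assigned in each library is not known, so both values are uncertain. Ifit2, from the same gene cluster, ran the other way, with 930 counts in WT spleen and 0 and 108 in KO spleen. In BM, Ifit1 had 7 to 39 counts in WT and 0 to 51 in KO samples, and Ifit2 had 96 to 183 in WT and 73 to 297 in KO samples, so their BM groups overlapped. Oas2 had 83 counts in WT spleen and 0 in both KO samples, at least 29.5-fold lower, and Ifi44 had 162 against 0 and 0, at least 57.6-fold lower. Iigp1 shows how far a single library can stand apart, with 0 counts in WT spleen, 0 in KO spleen 1 and 302 in KO spleen 2. Ifit1, Ifit2, Ifit3b, Ifi44 and Iigp1 are among the genes with the gap between spleen libraries described above, and the reason for that gap was not tested. Ifit3, just inside the 2-fold rule, was 1.001 above WT on the log2 scale in KO spleen 1 and 2.44 above it in KO spleen 2.

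**Figure D4:**
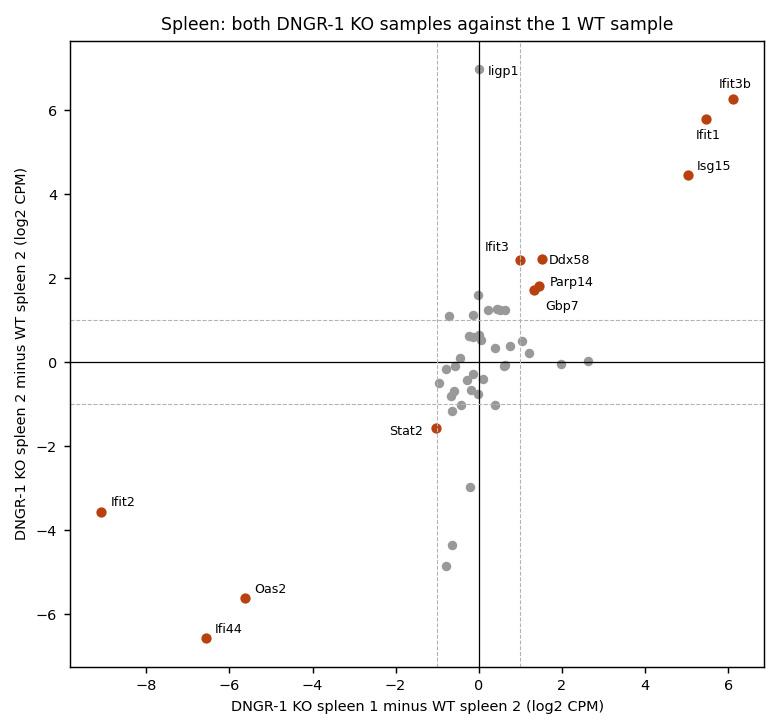
Difference of each DNGR-1 KO spleen sample from the WT spleen sample in log2 TMM-normalized CPM with a prior count of 2 (KO 1 on the horizontal axis, KO 2 on the vertical axis), for the 48 members that passed the filter. Dashed lines mark 2-fold, and the 11 members past it in both KO samples are red and named, 7 above and 4 below, while most of the others lie near 0 and Iigp1 is high in KO spleen 2 alone.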

How the data were processed

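Per the labels, total RNA of sorted pre-cDCs was sequenced in 9 samples (KAPA Hyper prep with Riboerase), and the submitters' processing notes name Trimmomatic 0.36, STAR 2.5.2, RSEM 1.3.0, DESeq2 1.18.1, R 3.4.3 and GRCm38. The authors deposited expected counts of 51912 genes, not normalized, of which 25.6% of nonzero values are not whole; these were rounded. The authors also deposited log2-scale VST values of 20810 genes, used as an alternative. Strand use in counting is not given in the sources used here. The study's methods regressed out a score of chromosome 1 genes; here the score was an alternative covariate. WT labels name both CD45.1 and CD45.2.

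Symbols came from GENCODE M21 (51719 identifiers matched). The members, the lists and the tests were chosen with earlier results of these data known. Groups were compared in R 4.3.3 with edgeR 4.0.16 (TMM, filterByExpr, quasi-likelihood, Benjamini-Hochberg over all genes tested, threshold 0.05), and alternatives used limma 3.58.1 and DESeq2 1.42.0. SE was derived from the F statistic. Spleen genotypes, with 1 WT sample, were described by a 2-fold rule on log2 CPM with a prior count of 2. The procedures were tested on simulated counts.

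Values per sample were given for members past the threshold (the 6 lowest adjusted p in each direction), the 3 lowest p in BM, the 3 largest spleen differences each way, receptors and transcription factors.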

Additional observations from a re-analysis of the deposited data

Results flagged for a closer look

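Isg15 was the only member whose genotype effect differed between tissues by the edgeR test of that difference. The log2 effect of DNGR-1 KO in spleen minus that in BM was 5.06 (SE 1.09, adjusted p = 0.0243), from 1 WT and 2 KO spleen samples and 3 samples of each genotype in BM. Both KO spleen samples were above the WT spleen sample, which held 7 counts. Of 49 members 1 was called in this test, beside 7.01% of the 15813 genes. The adjusted p ran from 3.98e-05 to 0.129 over the alternatives.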

How the results depend on the processing

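Between genotypes in BM, 0 members were called under every alternative tried, and the median stayed between 0.07 and 0.26. Between tissues, 24 members were called, beside 7.24% of genes higher and 11.7% lower. DESeq2 called 29 members and 28.7% of genes, and the other alternatives 18 to 25 members and 11.3% to 24.1% of genes, except as follows. DNGR-1 KO samples alone called 13 members and 9.95% of genes, and the replicate block 6 members and 7.49% of genes. Leaving out 1 sample gave 18 to 25 members and 13.0% to 22.7% of genes. The member median of 1.16 was 0.56 in the deposited VST values, which compress low counts. Pairing by replicate number was not shown: deviations of same-numbered WT and KO BM samples correlated at 0.103, 0.099 and -0.081, and the difference between KO samples 1 and 2 in BM with that in spleen at -0.041.

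The difference in genotype effect between tissues was called for 1 member, beside 7.01% of genes. DESeq2 called 3 (Isg15, Ifi44 and Ifit3b), beside 13.9% of genes. No filter called 0 members and 5.06% of genes, and the replicate block 0 members and 3.77% of genes. The filter of the tissue comparison (chosen after seeing the data) called 1 member and 8.08% of genes. Leaving out 1 BM sample gave 0 to 2 members and 4.92% to 5.97% of genes. Without KO spleen 1 or KO spleen 2, which leaves 1 KO spleen sample, the log2 difference of Isg15 was 4.73 or 5.32. The 11 members past 2-fold in spleen became 10 with a prior count of 5 or RLE normalization and 2 in VST values. The median difference over all 48 members kept in spleen, 0.25, was -0.01 to 0.06 with either KO sample alone. The causes were not tested. With 1 WT spleen sample, replication and the gap in detection between spleen libraries limit every spleen genotype value.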
